A study of Mus musculus with 10 samples.

Results

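The genes described here make up the working parts of the lysosome: proteases, glycosidases and lipid hydrolases, the proteins of its membrane, the pump that acidifies it, and the transcription factors Tfeb, Tfe3 and Mitf. They were chosen by name as a list of 39 genes. For each gene the brightest probe set was taken, by mean log2 intensity over the 10 arrays, among those to which the platform annotation gives a single gene symbol. On that rule 38 of the 39 were measured, of 18193 genes in all, and Cd63, a tetraspanin of lysosome and exosome membranes, was not analysed here. The cells were murine leukaemia cells (line 4166) driven by the Mll-AF9 fusion gene. One group of 5 arrays came from cells transduced with a lentivirus that makes a short hairpin RNA (shRNA) against Meis1, and the other 5 came from cells transduced with the vector alone. Both groups were grown with 15% serum and 2 ng/ml interleukin 3, selected with puromycin and harvested at 48 h, and shRNA and vector samples were paired by number. All cells were of 1 leukaemia line, and the labels do not state whether the 5 samples of a group were separate cultures. A p-value here therefore measures the spread between samples alone, and that spread may be technical.

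A lysosome digests what endocytosis and autophagy deliver. Its hydrolases are made in the endoplasmic reticulum, tagged with mannose 6-phosphate in the Golgi, and carried to an acid compartment kept at low pH by the vacuolar proton pump. Tfeb, Tfe3 and the related Mitf bind short E-box elements in the promoters of many of these genes, the CLEAR motif, and can raise them together. Macrophages and other mature myeloid cells are rich in lysosomes. Meis1, the targeted gene, is a homeodomain factor that works with Hoxa9 in this leukaemia.

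The promoters with the CLEAR core are shown because they hold the element that Tfeb and its relatives bind. RefSeq promoter windows of 300 bases (build GRCm38.p6, from 250 bases before to 50 after an annotated start) were at hand for 33 of the 39 genes. The core TCACGTGA, which reads the same on both strands and contains the E-box CACGTG, stood in the windows of 6 of the 33 (18.2%) and of 1.12% of 27025 genes. The E-box CACGTG alone stood in 11 of the 33 (33.3%) and in 8.09% of all genes, and Lamp1 had 4 copies. The hexamer TGACAG, a Meis-type sequence searched on both strands, stood in 33.3% of the 33 and in 21.6% of all genes. A match describes the sequence and is not evidence of binding. The 6 windows with the core follow, 5′ to 3′ on the strand of the gene, with the core in capitals.
Ctsa (chr2:164833523-164833822, plus strand): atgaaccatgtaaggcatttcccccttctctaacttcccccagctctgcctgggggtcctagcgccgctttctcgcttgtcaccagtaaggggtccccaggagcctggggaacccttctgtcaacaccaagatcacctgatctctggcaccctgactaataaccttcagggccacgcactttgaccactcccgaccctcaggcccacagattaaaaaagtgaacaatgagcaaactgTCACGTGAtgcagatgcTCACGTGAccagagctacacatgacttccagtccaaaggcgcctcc
Ctsd (chr7:142387778-142388077, minus strand): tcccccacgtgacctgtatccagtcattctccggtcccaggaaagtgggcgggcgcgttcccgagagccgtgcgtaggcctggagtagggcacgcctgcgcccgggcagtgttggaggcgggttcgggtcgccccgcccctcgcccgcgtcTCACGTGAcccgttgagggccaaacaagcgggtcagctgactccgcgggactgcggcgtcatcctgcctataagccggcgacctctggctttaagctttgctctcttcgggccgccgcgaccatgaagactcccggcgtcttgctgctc
Gla (chrX:134600956-134601255, minus strand): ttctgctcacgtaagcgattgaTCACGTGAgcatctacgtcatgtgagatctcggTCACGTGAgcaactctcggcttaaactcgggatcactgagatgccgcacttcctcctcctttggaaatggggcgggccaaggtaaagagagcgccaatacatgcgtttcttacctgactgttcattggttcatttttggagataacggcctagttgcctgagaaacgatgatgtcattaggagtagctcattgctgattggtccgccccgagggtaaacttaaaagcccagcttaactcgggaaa
Mcoln1 (chr8:3500269-3500568, plus strand): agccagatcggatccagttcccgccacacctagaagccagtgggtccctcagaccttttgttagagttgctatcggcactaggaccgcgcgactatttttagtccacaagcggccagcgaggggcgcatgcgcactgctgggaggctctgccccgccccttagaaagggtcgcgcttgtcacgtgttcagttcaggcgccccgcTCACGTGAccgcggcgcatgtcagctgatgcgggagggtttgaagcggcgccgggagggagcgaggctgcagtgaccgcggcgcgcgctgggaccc
Atp6v0d1 (chr8:105566015-105566314, minus strand): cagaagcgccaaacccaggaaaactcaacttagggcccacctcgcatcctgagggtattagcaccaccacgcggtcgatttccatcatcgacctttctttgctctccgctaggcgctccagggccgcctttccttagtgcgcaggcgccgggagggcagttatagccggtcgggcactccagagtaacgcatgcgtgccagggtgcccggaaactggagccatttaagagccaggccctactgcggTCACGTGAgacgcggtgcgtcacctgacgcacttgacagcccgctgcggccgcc
Atp6v1a (chr16:44139210-44139509, minus strand): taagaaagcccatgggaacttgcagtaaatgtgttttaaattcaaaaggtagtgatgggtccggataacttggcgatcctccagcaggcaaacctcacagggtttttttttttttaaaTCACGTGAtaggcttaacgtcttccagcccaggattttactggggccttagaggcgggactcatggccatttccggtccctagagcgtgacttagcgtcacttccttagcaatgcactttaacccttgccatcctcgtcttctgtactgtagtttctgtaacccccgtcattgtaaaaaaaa

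These 6 genes encode a carboxypeptidase, an aspartic protease, an α-galactosidase, a calcium channel and 2 pump subunits. With Meis1 reduced, their log2 changes lay between -0.09 and 0.17 with a median of 0.05, against a median of 0.02 for the other 26 measured genes with a window. None of the 6 passed the test described next.

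The targeted gene was lower in each shRNA sample than in its partner. The intensity of Meis1 was 193, 221, 127, 142 and 140 in shRNA samples 1 to 5, against 396, 413, 297, 333 and 290 in vector samples 1 to 5, and the groups did not overlap. The change was -1.09 on the log2 scale (SE 0.08, adjusted p = 0.000636 by limma).

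None of the 38 listed lysosome genes passed the test alongside that reduction of Meis1, and their fitted changes were small. By limma with the pairs as a block and Benjamini-Hochberg adjustment over all genes, 0 of 38 were called lower and 0 higher at a threshold of 0.05, while 2.98% of all genes were called lower and 1.08% higher. After quantile normalization the split over all genes was 2.1% lower and 1.7% higher, and of the 38 lysosome genes Scarb2 and Tfe3 were then called higher. At an unadjusted p under 0.05, 7 of the 38 were higher (18.4%, against 6.9% of all genes) and 1 was lower (2.63%, against 11.1%). The 7 were Ctss, Ctsl, Man2b1, Psap, Scarb2, Atp6v1b2 and Tfe3, and the 1 was Gusb. The median log2 change was 0.07 over the 38 genes and 0.00 over all genes, and 24 of the 38 were above 0. In all 5 pairs 8 genes were higher (21.1%, against 7.45% of all genes) and 3 were lower (7.89%, against 10.3%). The range of single changes ran from -0.25 (Lipa) to 0.39 (Tfe3).

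The share of genes with a narrow interval was much the same for these genes as for all genes, but the sets differed in level. The 95% interval of the change lay within 1.5-fold in both directions for 34 of the 38 genes (89.5%, against 87.1% of all genes). Those outside 1.5-fold were Ctss, Lipa, Tfe3 and Mitf. Intervals are per gene and were not adjusted for the number of genes. A narrow interval says little for a dim probe set, and 31 of the 38 genes had a mean log2 level above 5. Of those 31, 29 had an interval within 1.5-fold, and the share over all genes above that level is not given here. The dimmest, Lgmn and Ctsh, had mean log2 levels of 2.02 and 2.38, near the 1.90 to 1.98 of 3 control probe sets for the bacterial gene Trpn.

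**Figure D1:**
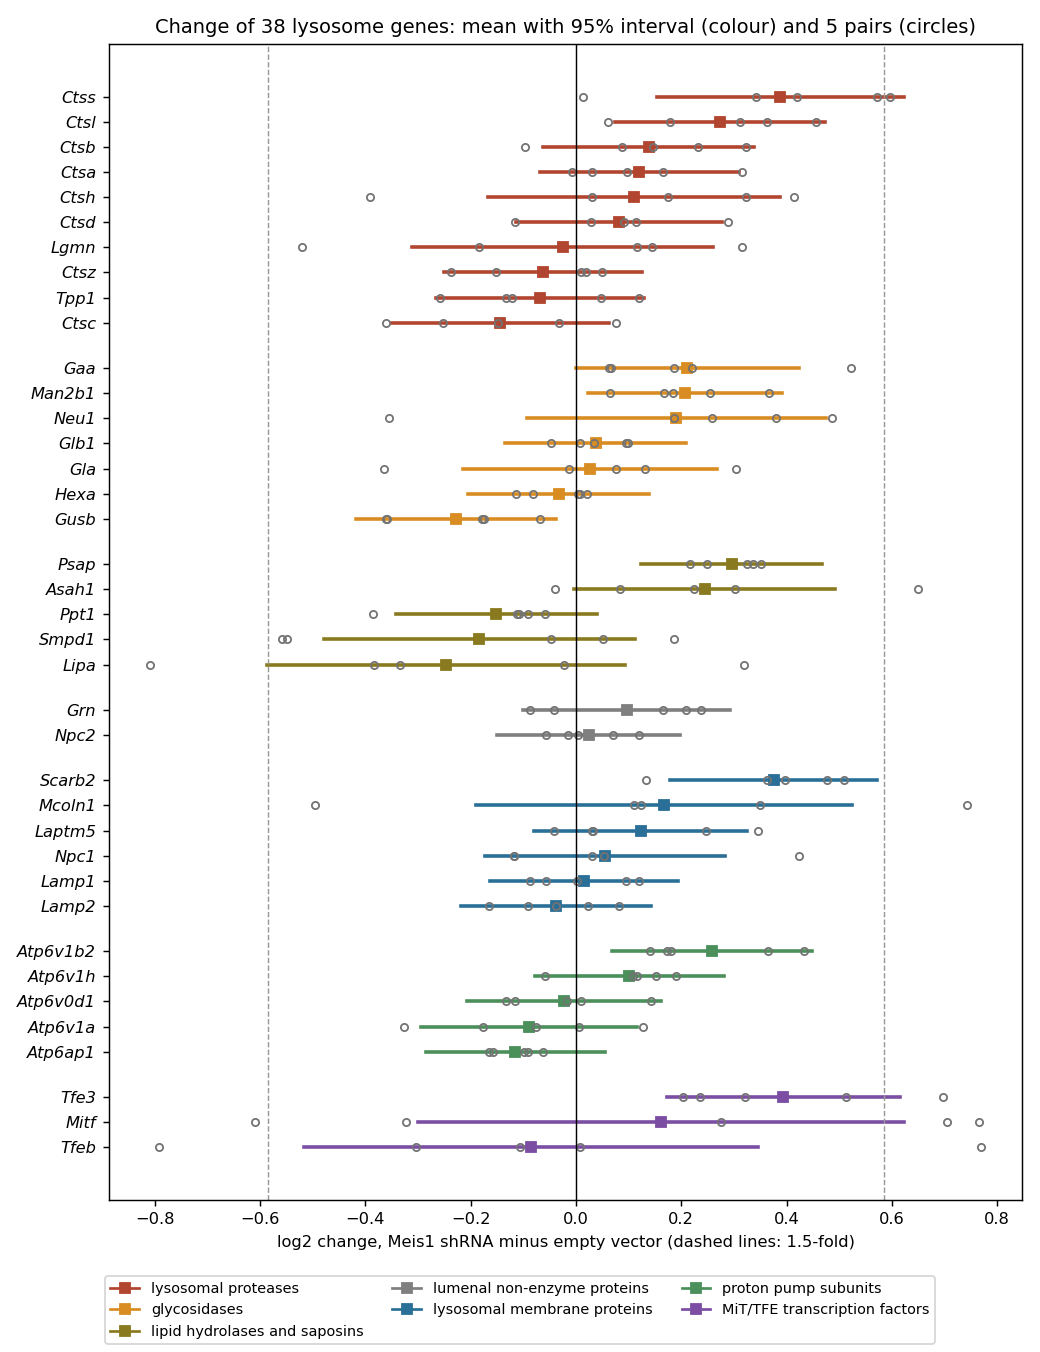
Log2 change (Meis1 shRNA minus empty vector, x axis) of 38 lysosome genes, by class. Squares with bars are the fitted change and its 95% interval, circles are the 5 pairs, and dashed lines mark 1.5-fold. Most intervals include 0, the fitted changes run from -0.25 to 0.39, and no class lies wholly to one side except the pair of lumenal proteins Npc2 and Grn.

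The count of 0 did not hold in every setting. With a trended and robust variance prior, limma called 6 of the 38 higher (Ctsl, Ctss, Man2b1, Psap, Scarb2 and Atp6v1b2; all genes, 2.49%) and Gusb lower (all genes, 5.74%). Among genes with a mean log2 level above 5, it called 5 of 31 higher (Ctsl, Ctss, Psap, Scarb2 and Atp6v1b2) and 0 lower, against 5.8% and 13.6% of all such genes. Without pair 5 it called Ctss and Scarb2 higher (all genes, 1.5%). With unmoderated variances it called none in either direction (all genes, 0.165% lower and 0.055% higher). The same held in an unpaired fit (2.23% and 0.522%) and with the 3′ to 5′ signal ratio as a covariate (0.011% and 0%). That ratio, taken from the Gapdh and actin control probe sets and a measure of RNA integrity, was 0.37 ± 0.02 in shRNA arrays and 0.28 ± 0.06 in vector arrays on the log2 scale (SD, n = 5), higher in all 5 pairs (exact two-sided sign-flip permutation p = 0.0625, the smallest that 5 pairs can give). With it as a covariate the change of Ctss was 0.16 and that of Scarb2 0.20, and over all genes 2 were called. Meis1 itself did not pass with the covariate (adjusted p = 0.186 by limma), so not passing in that setting says little about a gene.

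Among the proteases, 10 genes were measured and the median log2 change was 0.10. Cathepsin S (Ctss), a cysteine protease of antigen-presenting cells that trims the invariant chain, had the largest change. Its intensity was 325, 350, 311, 415 and 587 in shRNA samples 1 to 5, against 256, 236, 232, 275 and 582 in vector samples 1 to 5. Sample 5 stood far above the rest in both groups, so the groups overlapped, although each shRNA sample read above its partner. The change was 0.39 (SE 0.10, adjusted p = 0.0791 by limma). The means were 398 ± 113 in shRNA cells and 316 ± 149 in vector cells (SD, n = 5). The gap was near 0 in pair 5 (0.01) and between 0.34 and 0.60 in the others, and without pair 5 the change was 0.48 (adjusted p = 0.0288 by limma). Without pair 1, 2, 3 or 4 its adjusted p lay between 0.185 and 0.261.

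The other proteases had smaller differences. Cathepsin L (Ctsl), a general lysosomal endopeptidase, read 625, 557, 560, 628 and 523 in shRNA samples, against 455, 449, 436, 603 and 462 in vector samples, a log2 change of 0.27 (adjusted p = 0.139 by limma). Vector sample 4 overlapped the shRNA samples, and the other 4 vector samples lay below all 5. Cathepsin B (Ctsb), a cysteine protease abundant in many cells, had a log2 change of 0.14. Its next brightest probe set gave -0.01, a dim one that was lower in all 5 pairs gave -0.31, and the mean of its probe sets gave -0.09. Cathepsin D (Ctsd), the main aspartic protease, had a log2 change of 0.08. Cathepsin A (Ctsa), a serine carboxypeptidase that also shields neuraminidase and β-galactosidase, had a log2 change of 0.12. Cathepsin C (Ctsc), the dipeptidyl peptidase that activates the serine proteases of neutrophil granules, was the lowest of the class at -0.14. Cathepsin Z (Ctsz), a carboxypeptidase, and Tpp1, a tripeptidyl peptidase, had log2 changes of -0.06 and -0.07. The second, dimmer Tpp1 probe set gave 0.13. Adjusted p for these 6 genes lay between 0.473 (Ctsc) and 0.769 (Ctsz). Lgmn, the asparaginyl endopeptidase that matures cathepsins, and the aminopeptidase cathepsin H (Ctsh) were at background, as given above.

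The 7 glycosidases, which strip sugars from glycoproteins and glycolipids, had a median log2 change of 0.04 and went both ways. Gusb, β-glucuronidase, had the largest change of the class. It read 2442, 2598, 2313, 2352 and 2554 in shRNA samples, against 2762, 2724, 2969, 3017 and 2883 in vector samples. All shRNA samples lay below all vector samples, as they did for 3.45% of all genes, and Gusb was the 1 of the 38 genes for which this held. For 0 of the 38 did all shRNA samples lie above all vector samples (1.53% of all genes). The change was small, at -0.23 (SE 0.08, adjusted p = 0.188 by limma, 1.17-fold lower), and the second Gusb probe set gave -0.33. Man2b1, the acid α-mannosidase, and Gaa, the acid α-glucosidase that degrades glycogen, were each higher in all 5 pairs, with changes of 0.21 and 0.21 (adjusted p = 0.218 and 0.279 by limma). Their second probe sets gave -0.23 and -0.03 but were dimmer. The mean log2 levels were 5.45 against 11.46 for Man2b1 and 6.60 against 8.90 for Gaa. Neu1, the sialidase, had a log2 change of 0.19. The others lay nearer to 0, with Glb1 (β-galactosidase) at 0.04, Gla (α-galactosidase) at 0.03 and Hexa (the α subunit of β-hexosaminidase) at -0.03.

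Of the 5 genes grouped as lipid hydrolases and saposins, 3 were below 0 and 2 above. The median log2 change was -0.15, the value of Ppt1, an enzyme that acts on proteins. The median turned to 0.047 among genes above a mean log2 level of 5 and to 0.082 with the 3′ to 5′ ratio as a covariate. Psap, the precursor of the saposins that present sphingolipids to their hydrolases, differed in the same direction in all 5 pairs. It read 892, 951, 931, 1011 and 1322 in shRNA samples, against 707, 818, 743, 792 and 1113 in vector samples. Each pair differed by between 0.22 and 0.35, although sample 5 was high in both groups and the groups overlapped. The change was 0.30 (SE 0.08, adjusted p = 0.0709 by limma), and the second Psap probe set gave 0.26. Asah1, acid ceramidase, had a log2 change of 0.24 (adjusted p = 0.286). Below 0 were Lipa, the acid lipase that frees cholesterol from its esters (-0.25), Smpd1, acid sphingomyelinase (-0.18), and Ppt1, which removes palmitate from proteins (-0.15, lower in all 5 pairs). Lipa and Smpd1 were dim, at mean log2 levels of 5.00 and 4.73.

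The lumenal proteins that are not enzymes differed little. Grn, progranulin, a growth factor precursor cleaved in lysosomes, read 2375, 1953, 1987, 2418 and 1955 in shRNA samples, against 2015, 2011, 1720, 2156 and 2077 in vector samples. The groups overlapped, and the change was 0.10 (SE 0.09, adjusted p = 0.64 by limma). Npc2, which hands cholesterol to Npc1, had a log2 change of 0.02 (adjusted p = 0.916).

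Among 6 measured membrane proteins the median log2 change was 0.09. Scarb2 (LIMP-2), the receptor that brings glucocerebrosidase to the lysosome, came nearest to the threshold of the 38 genes. Its probe set read 436, 398, 419, 517 and 357 in shRNA samples, against 313, 302, 326, 363 and 326 in vector samples. Only shRNA sample 5 fell among the vector samples. The change was 0.38 (SE 0.09, adjusted p = 0.0507 by limma, 1.30-fold higher), and 0.44 without pair 5 (adjusted p = 0.0326). Without pair 1, 2, 3 or 4 its adjusted p lay between 0.131 and 0.184. A second Scarb2 probe set of similar brightness, at a mean log2 level of 8.42 against 8.53, did not show it: that one gave -0.19 and was lower in 3 of 5 pairs. As the mean of its probe sets, Scarb2 had a log2 change of 0.09 (adjusted p = 0.671).

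Lamp1 and Lamp2, the heavily glycosylated proteins that line the membrane, gave log2 changes of 0.02 (95% interval -0.16 to 0.19) and -0.04. Lamp2 has splice forms with different tails, and its 4 probe sets split in pairs. The brighter 2 gave -0.04 and -0.09, and the dimmer 2 gave 0.26 and 0.20, each of the dimmer pair being higher in 5 of 5 pairs. Which splice form each probe set reads was not examined, and none of the 4 passed over all probe sets (adjusted p from 0.201 to 0.898 by limma). Laptm5, a lysosomal protein of blood cells that sorts immune receptors for degradation, had a log2 change of 0.12 (adjusted p = 0.546). Npc1, which exports cholesterol, and Mcoln1, the calcium channel TRPML1, had log2 changes of 0.05 and 0.17 with adjusted p of 0.841 and 0.659.

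The vacuolar proton pump has a cytosolic V1 part that splits ATP and a membrane V0 part that passes protons. The median log2 change of its 5 listed genes was -0.02. Atp6v1b2, a V1 subunit of the ATP-binding head, read 564, 526, 768, 862 and 928 in shRNA samples, against 418, 464, 681, 669 and 842 in vector samples. Samples 1 and 2 were low in both groups, so the groups overlapped, but each shRNA sample read above its partner. The change was 0.26 (SE 0.08, adjusted p = 0.143 by limma), and the next brightest Atp6v1b2 probe set gave 0.25. Its partner in the head, Atp6v1a, had a log2 change of -0.09. A second Atp6v1a probe set of similar brightness, at a mean log2 level of 8.46 against 8.53, gave -0.22. That one was lower in all 5 pairs but did not pass over all probe sets (adjusted p = 0.245 by limma). The regulatory V1 subunit Atp6v1h had a log2 change of 0.10. In the V0 part, Atp6v0d1 had a log2 change of -0.02. The accessory subunit Atp6ap1 had a log2 change of -0.12, lower in all 5 pairs (adjusted p = 0.487).

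The 3 transcription factors were dim. Tfe3 read 26.0, 28.1, 23.3, 36.5 and 25.9 in shRNA samples, against 22.6, 23.8, 18.6, 25.6 and 15.95 in vector samples. Each shRNA sample read above its partner, but the groups overlapped, and the change was 0.39 (SE 0.10, adjusted p = 0.0635 by limma). It passed after quantile normalization (0.53, adjusted p = 0.0305) and, with 1 probe set, in the setting that averages probe sets (adjusted p = 0.0416), and with a pseudocount of 16 (adjusted p = 0.0493). It did not pass in the other settings that tested it, where adjusted p lay between 0.088 (median centring) and 0.77 (the covariate). Tfeb had a log2 change of -0.09 with pairs between -0.79 and 0.77, and Mitf at 0.16 with pairs between -0.61 and 0.77. Their mean log2 levels were 3.28 and 4.95, and their 95% intervals ran from -0.52 to 0.35 and from -0.30 to 0.62.

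**Figure D2:**
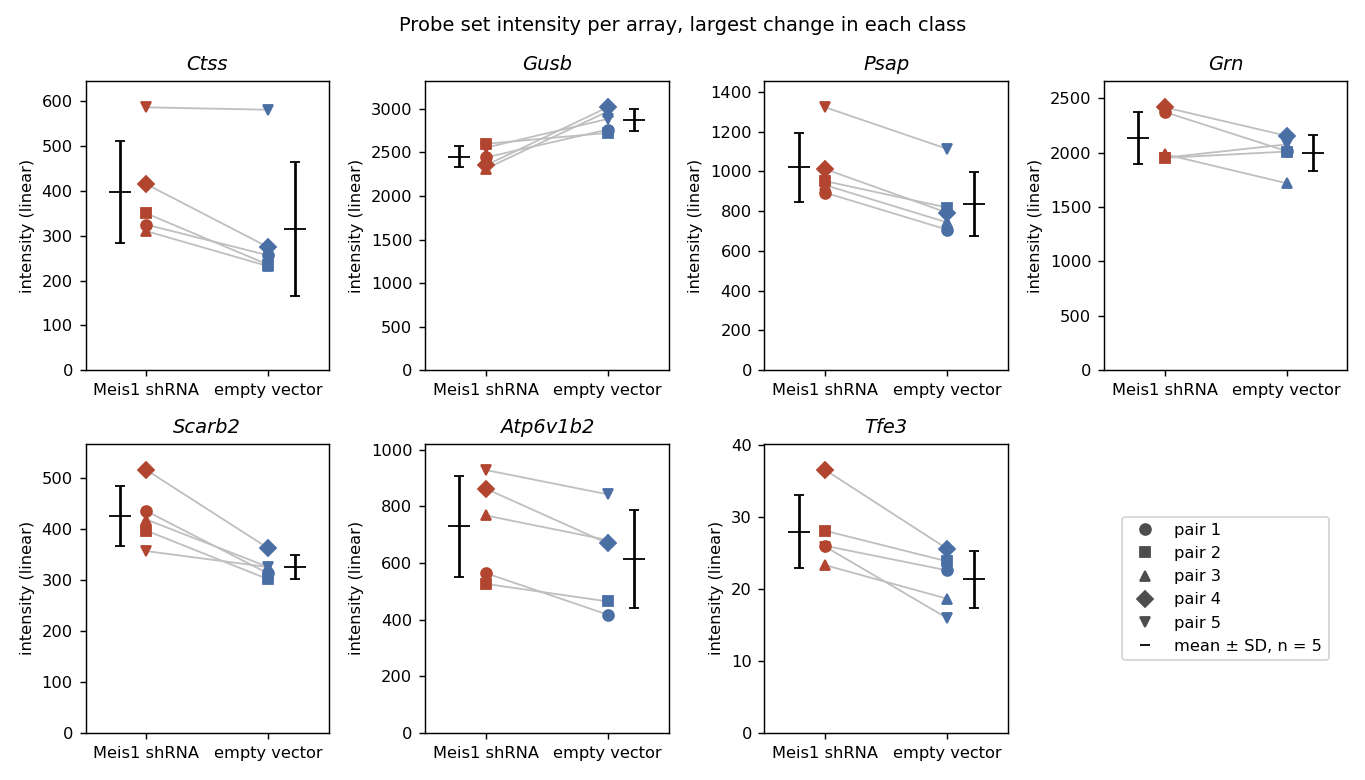
Probe set intensity (linear scale, y axis from 0) in Meis1 shRNA and empty vector arrays for the gene with the largest absolute change in each of 7 classes. Marker shapes give the pair, grey lines join partners, and black bars are mean ± SD (n = 5). For Ctss, Psap, Scarb2, Atp6v1b2 and Tfe3 all 5 lines run down from shRNA to vector, for Gusb all 5 run up, and Grn goes both ways.

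The classes were set side by side without a test of the difference between them. The median log2 change was 0.10 for proteases, 0.04 for glycosidases, -0.15 for lipid hydrolases and saposins, and 0.06 for lumenal non-enzyme proteins. It was 0.09 for membrane proteins, -0.02 for pump subunits and 0.16 for the transcription factors. The medians of the lipid hydrolases and saposins (as above), glycosidases (-0.032), lumenal proteins (-0.0089) and membrane proteins (-0.00041) changed sign with the covariate. That of the pump subunits turned to 0.0093 after quantile normalization, and that of the glycosidases to -0.0018 with median centring. Class means also varied between pairs. The mean of the glycosidases ran from -0.12 (pair 5) to 0.20 (pair 2), and that of the pump subunits from -0.05 (pair 2) to 0.10 (pair 4). Every class held changes of both signs except the lumenal pair.

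Values also differed between sample numbers, for these genes about as often as for all genes. The range over the 5 vector arrays was wider than the fitted change for 36 of the 38 genes (94.7%, against 92.6% of all genes), the exceptions being Gusb and Scarb2. Ctss ranged 2.50-fold over vector arrays, Asah1 2.18-fold and Atp6v1b2 2.02-fold. Some genes split the sample numbers alike in both groups, though partners could differ, by 0.65 log2 units in pair 2 of Asah1. Asah1 read 648, 816, 1006, 1043 and 1102 in shRNA samples, against 611, 520, 861, 846 and 1133 in vector samples. Samples 1 and 2 were the lowest in both groups. Ctsc had the opposite order, at 2460, 2770, 1884, 1747 and 1619 in shRNA samples, against 2726, 2628, 2245, 2243 and 1656 in vector samples, with samples 1 and 2 highest in both groups. The pair block takes these shared differences out of the fit. The labels name no batch that divides the sample numbers.

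**Figure D3:**
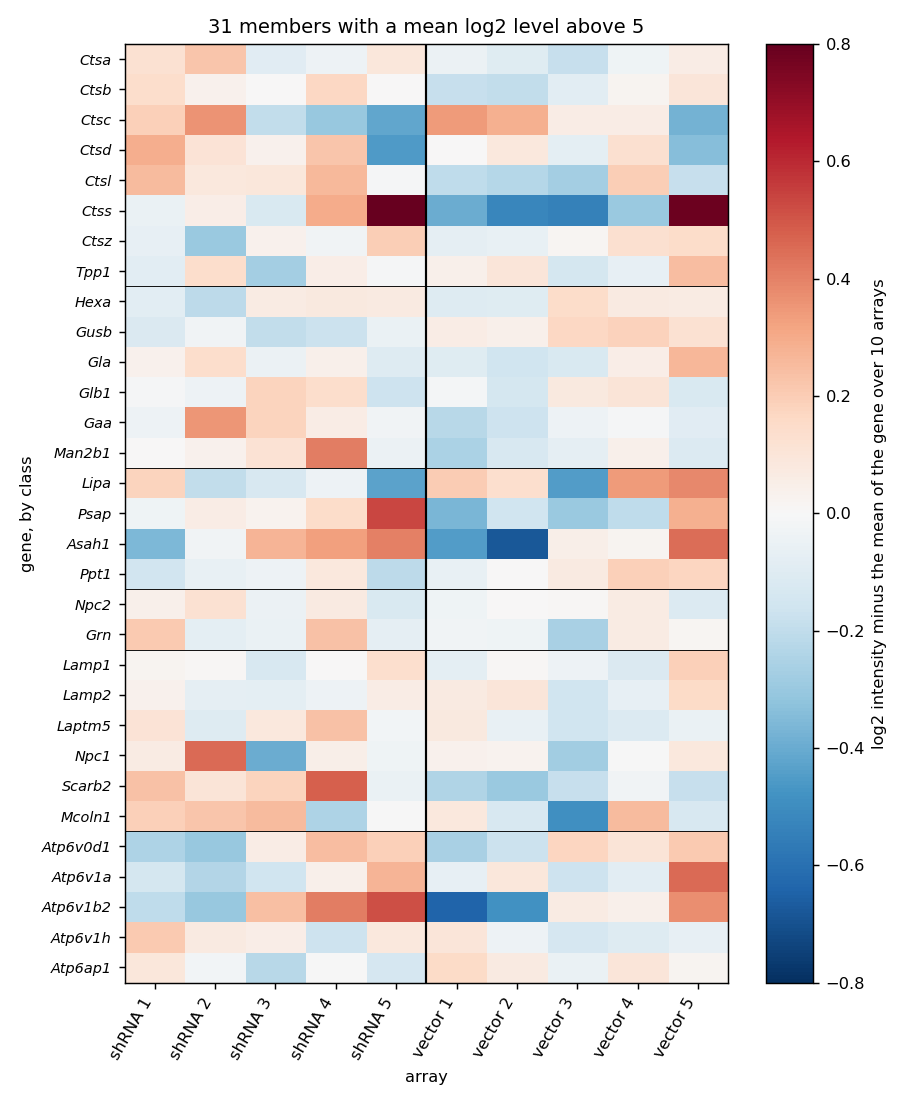
Log2 intensity of 31 lysosome genes with a mean log2 level above 5, each minus its mean over the 10 arrays (colour), in 5 Meis1 shRNA arrays (left of the line) and 5 empty vector arrays (right). Ctss is high in sample 5 of both groups, Asah1 and Atp6v1b2 are low in samples 1 and 2 of both groups, and Ctsc is low in sample 5 of both groups.

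The genes around these were looked at next, among them those that address hydrolases to the lysosome. A wider list of 115 genes, of which 104 were measured, covered other hydrolases, membrane proteins and pump subunits, enzyme sorting, cystatins, TFEB control and autophagy. Of these, 3 fell and 5 rose by limma, set beside 2.98% of all genes lower and 1.08% higher, with a median log2 change of 0.04. At an unadjusted p under 0.05, 12 were lower (11.5%, against 11.1% of all genes) and 19 higher (18.3%, against 6.9%).

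Both genes of GlcNAc-1-phosphotransferase, the Golgi enzyme that starts the mannose 6-phosphate tag, fell. Gnptab encodes its catalytic α and β subunits and read 801, 702, 570, 586 and 708 in shRNA samples, against 1114, 1228, 925, 999 and 929 in vector samples. The groups did not overlap. The change was -0.63 (SE 0.09, adjusted p = 0.00941 by limma, 1.55-fold lower), and its other probe sets gave -0.58 and -0.64. Gnptg encodes the γ subunit, which helps the enzyme recognise its clients. It was dim and read 21.7, 34.0, 20.2, 32.7 and 18.5 in shRNA samples, against 46.1, 60.2, 43.3, 53.6 and 33.2 in vector samples. Vector sample 5 lay just below shRNA sample 2, and the other vector samples lay above all shRNA samples. The change was -0.91 (SE 0.09, adjusted p = 0.00158 by limma, 1.88-fold lower). Gnptg passed whichever pair was left out. Gnptab had an adjusted p of 0.0523 without pair 4 and passed without each of the others. Neither passed with unmoderated variances (adjusted p = 0.0933 for Gnptab and 0.0628 for Gnptg) or with the 3′ to 5′ ratio as a covariate (changes of -0.50 and -0.96, adjusted p = 0.661 and 0.277). The remaining 13 sorting genes did not pass. They include Nagpa, the enzyme that completes the tag (0.17, adjusted p = 0.433), and M6pr, the cation-dependent receptor that reads it (0.09, adjusted p = 0.602).

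Atg12, which is conjugated to Atg5 to extend the autophagosome membrane, fell, with a log2 change of -0.70 (SE 0.10, adjusted p = 0.00921 by limma). It read 233, 171, 197, 186 and 265 in shRNA samples, against 352, 355, 290, 325 and 371 in vector samples, without overlap. A second Atg12 probe set gave -0.76. Its adjusted p was 0.0523 without pair 4 and 0.637 with the covariate, at a change of -0.62. Sqstm1, the cargo receptor p62, rose by 0.46 log2 units (adjusted p = 0.0236). It read 1578, 1893, 1413, 1903 and 1368 in shRNA samples, against 1110, 1248, 1042, 1308 and 1174 in vector samples, also without overlap. The other 14 autophagy genes did not pass.

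Besides Sqstm1, the genes that rose were Cstb, Idua, Laptm4a and Aga. Cstb, cystatin B, a cytosolic inhibitor of cysteine cathepsins, rose by 0.46 log2 units (adjusted p = 0.0313 by limma). It read 1781, 1433, 1414, 1540 and 1285 in shRNA samples, against 1177, 1092, 967, 1020 and 1140 in vector samples, and its second probe set gave 0.50. Cst3, the secreted cystatin C, had a log2 change of 0.09 (adjusted p = 0.66). Idua, α-L-iduronidase, rose by 0.44 log2 units (adjusted p = 0.0211), though its second, dimmer probe set gave 0.02. The probe set used was itself dim, at a mean log2 level of 4.97, and so was left out of the setting above a level of 5. Laptm4a, a membrane protein of late endosomes, rose by 0.41 log2 units (adjusted p = 0.0442) and Aga, which splits the bond between asparagine and sugar, by 0.39 (adjusted p = 0.0395). Idua, Laptm4a and Aga were higher in all 5 pairs.

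These increases did not hold in many settings, some of which called few genes of any kind. With unmoderated variances or the covariate none of them passed, where 0.055% and 0% of all genes were called higher. Without pair 1, 2, 3 or 4, 0 of the 104 genes were called higher, where 0.242% to 0.368% of all genes were. The adjusted p of Sqstm1, Cstb, Idua, Laptm4a and Aga then lay between 0.0555 and 0.149 by limma. Without pair 5, Sqstm1, Cstb and Idua passed, while Laptm4a (0.075) and Aga (0.0526) did not. In an unpaired fit Aga had an adjusted p of 0.404 and Sqstm1 0.0544. Of 13 further pump subunits and 10 genes of mTORC1 and TFEB control, 0 passed in either direction by limma, while at an unadjusted p under 0.05 the pump list had 3 higher and 1 lower and the control list 2 lower, where all genes had 6.9% higher and 11.1% lower.

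**Figure D4:**
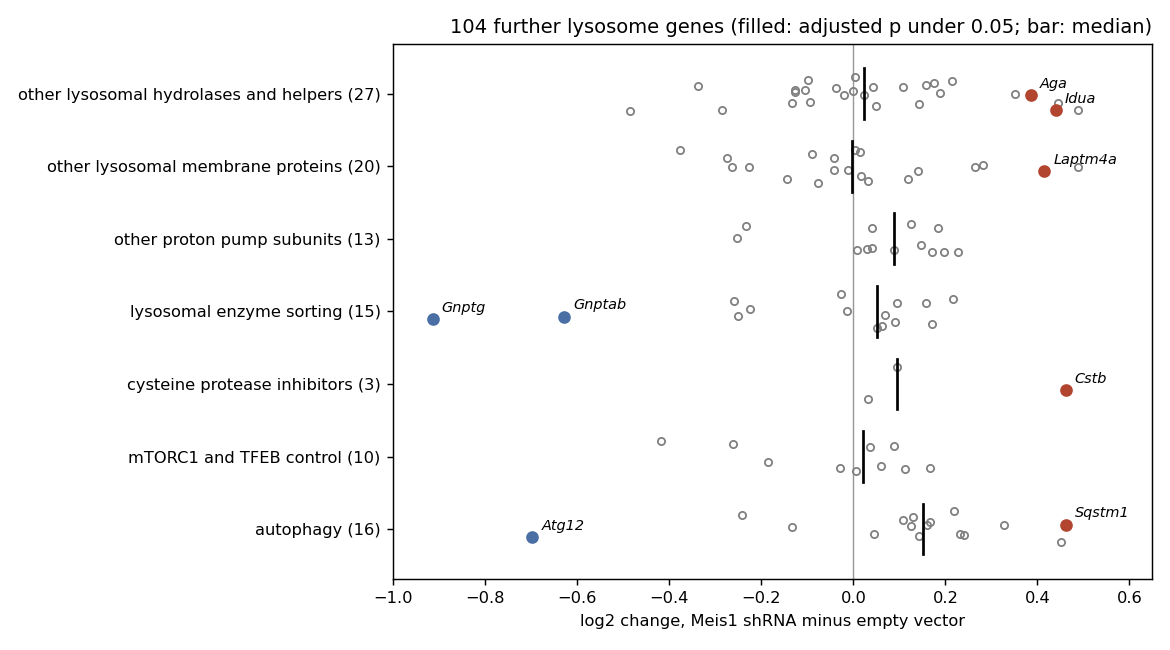
Log2 change (Meis1 shRNA minus empty vector, x axis) of 104 further genes of the lysosome, its sorting route and autophagy, by list with the number measured. Filled circles passed an adjusted p of 0.05 (red higher, blue lower), open circles did not, and black bars are list medians. Gnptg, Gnptab and Atg12 lie left of all others, and the highest list median is 0.15 (autophagy).

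Markers of other cell types that these cultures could hold were measured beside these genes. Of 10 macrophage markers 1 was called, Adgre1 (F4/80), which was higher, and at an unadjusted p under 0.05 Mertk (0.34) and Marco (0.26) were higher too. A mean log2 level under 4 was found for 8 of the 10, among them Mertk (2.56), Marco (2.45), Csf1r and the complement genes C1qa, C1qb and C1qc. Besides Adgre1, only Cd68 lay above 4, with a log2 change of -0.04, higher in 2 of 5 pairs. The summed intensity of the 10 ran from 719 to 1024 in shRNA arrays and from 545 to 931 in vector arrays. It was higher in 4 of 5 pairs. Mature neutrophil markers summed to between 59.6 and 666 in shRNA arrays and between 44.8 and 609 in vector arrays. The sum was higher in 5 of 5 pairs, with 0 of 8 called by limma. S100a8 alone was higher at an unadjusted p under 0.05, and the other 7 of the 8 had a mean log2 level under 4. The 8 markers of leukaemic myeloid cells, the labelled cell type, all had a mean log2 level above 4. Their sum ran from 12209 to 17691 in shRNA arrays and from 13903 to 20463 in vector arrays, and was lower in 5 of 5 pairs, with Mpo at 8148 to 12200 in shRNA arrays and 9507 to 13700 in vector arrays as its main term. Of the 8, Ptprc, Elane and Meis1 were called lower, and Meis1, the target of the shRNA, says nothing of cell share. At an unadjusted p under 0.05 Itgam (0.45), Spi1 (0.33) and Cebpa (0.26) were higher, each in 4 of 5 pairs. The 5 genes listed as mast cell markers include Mcpt8, in mice a protease of basophils. They summed to between 238 and 370 in shRNA arrays and between 296 and 619 in vector arrays. The sum was lower in 5 of 5 pairs, with 0 of 5 called by limma. Mcpt8, at 214 to 346 in shRNA arrays and 273 to 598 in vector arrays, was its main term. Mcpt8 alone was lower at an unadjusted p under 0.05, and the other 4 of the 5 had a mean log2 level under 4. The sum therefore follows Mcpt8 and says little of mast cells. All measured markers of B, T, erythroid and fibroblast cells had a mean log2 level under 4, as did 4 of 5 dendritic cell markers. The other was Flt3, at 4.35. The part of these markers in the lysosome values was not tested. In such bulk samples a lower share of cells that express a gene and less RNA per cell cannot be told apart.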

How the data were processed

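RNA was measured on Affymetrix mouse arrays, and the authors deposited 1 linear intensity per probe set and array (1.29 to 32400; the scale was read from the values). RMA, which corrects background, normalizes between arrays and compresses large folds, made them per the submitters' processing notes. Version and settings were not given in the sources used here. Among 45101 probe sets, 64 controls were left out, 34945 had 1 gene symbol in the platform annotation, 932 several and 9160 none.

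Intensities were log2-transformed with no pseudocount, and each of 18193 genes was read from its brightest probe set. Groups were compared, shRNA minus vector, with limma 3.58.1 in R 4.3.3 (lmFit and eBayes, two-sided, sample number as a fixed block) and Benjamini-Hochberg adjustment over all genes at 0.05. The fit was tested on simulated data. The labels pair the samples, and the deviations of partners from their group means correlated at 0.310 to 0.600 over 11215 bright probe sets, which are not independent. Precision is limited by the 5 arrays per group. Members, lists and alternatives were chosen with earlier results of these data known. Values per array are given for the largest change in each class and for genes of the wider list past the threshold, except Idua and Laptm4a. Ctsl, Asah1 and Ctsc were added after their values were seen. Alternatives changed the block, scaling, variance model, probe set choice, level filter, pseudocount, RNA quality covariate and the pairs used. Promoters are from RefSeq (GRCm38.p6).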

Additional observations from a re-analysis of the deposited data

Results flagged for a closer look

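Of 76 sets of 5 values (38 genes in 2 groups), 3 held a sample set apart from the other 4 by a large part of the group's range. Chance alone gives about 1 in 20 such sets. All 3 were in the vector group. Ctss read 582 in vector sample 5, against 232 to 275 in the other vector samples, and shRNA sample 5 was also the highest of its group. Ctsl read 603 in vector sample 4, against 436 to 462 in the others. Npc1 read 42.4 in vector sample 3, against 51.2 to 54.4 in the others.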

How the results depend on the processing

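The count of 38 lysosome genes called higher was 0 as reported, and 1 with a random replicate block (all genes, 0.978%), 2 after quantile normalization (1.7%), 6 with a trended and robust prior (2.49%), 1 with the mean of all probe sets (1.1%), 5 (of 31) above a mean log2 level of 5 (5.8%), and 4 with a pseudocount of 16 (1.92%). The count called lower was 1 with the trended and robust prior and 0 in every other setting run. With no replicate block both counts were 0 (all genes, 0.522% higher and 2.23% lower). So they were with median centring (0.874% and 3.65%) and without moderation (0.055% and 0.165%). With the 3′ to 5′ ratio as a covariate beside the block both were 0 as well (0% and 0.011%). Leaving out each pair gave 0 to 2 higher and 0 lower (all genes, 0.242% to 1.5% and 1.09% to 3.61%). The protease median was 0.0084 with the mean of all probe sets. The lipid hydrolase median was -0.0043 with that mean, 0.047 above the level filter and 0.082 with the covariate. With the covariate the membrane median was -0.00041 and the pump median -0.13, and Grn turned to -0.048. The median of the 3 transcription factors had no value above the level filter. The glycosidase median ran from 0.022 to 0.12 over left-out pairs, the latter without pair 5, and was -0.032 with the covariate, -0.0018 with median centring and 0.096 after quantile normalization. The lumenal median was -0.0089 with the covariate. The pump median was 0.0093 after quantile normalization and 0.005 and 0.00063 without pairs 2 and 3. In the wider list, 3 lower and 5 higher as reported, the counts lower and higher were 5 and 3 with median centring (all genes, 3.65% and 0.874%), 8 and 8 with the trended prior (5.74% and 2.49%), 0 and 0 without moderation, 0 and 0 with the covariate, 6 and 3 when probe sets were averaged (3.6% and 1.1%), and, of 77 genes above the level filter, 9 and 6 (13.6% and 5.8%). With no replicate block 3 were higher and 3 lower (all genes, 0.522% and 2.23%). Left-out pairs gave 1 to 4 lower (1 without pair 4) and 0 to 4 higher (0 without pair 1, 2, 3 or 4). Of all genes, 0.242% to 0.368% were called higher without pair 1, 2, 3 or 4, and 1.5% without pair 5. Over all genes, 543 were called lower and 196 higher, against 382 and 309 after quantile normalization, 1044 and 453 with the trended prior, and 30 and 10 without moderation. Without pairs 1 to 4 the number lower was 253, 228, 284 and 199, and without pair 5 it was 656. With the covariate, which differed between the groups, 2 genes in all were called, and Meis1 was not among them. Apart from the smaller number of samples or genes tested in some settings, the cause was not tested. Dim probe sets, Lgmn, Ctsh and Tfeb above all, limit what could be seen.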

Other observations

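Tfec, a further relative of Tfeb that is found in macrophages, varied with sample number in the same way as Ctss. It read 472, 368, 453, 529 and 845 in shRNA samples, against 430, 431, 509, 466 and 883 in vector samples. Sample 5 was the highest in both groups by a wide margin. The change with the shRNA was -0.03 on the log2 scale (SE 0.09, adjusted p = 0.922 by limma).

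Aga divided the samples by number in both groups, as Asah1 did, with 495, 529, 740, 802 and 753 in shRNA samples, against 385, 356, 620, 593 and 610 in vector samples.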
